A study of Mus musculus with 30 samples.

Results

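Pericytes sorted from the small intestine were compared with pericytes sorted from the colon. The members were the 6 libraries of the 30 in the series that GEO labels as pericytes, 3 from each tissue, and both tissues were sorted with the same gate. In the study, mesenchymal stromal cell (MSC) subsets of the intestinal lamina propria (LP) were sorted from untreated adult mice and profiled by bulk RNA-seq. The mice were of strain C57BL6/Nrj, 8 to 10 weeks old, and both sexes were used in the study. Pericytes were PDGFRα-ESAM-1+PDPN- cells, taken after dead, Lineage, CD31+, BP3+, EpCAM+ and NCAM hi cells had been left out. The other 24 libraries held fibroblast (FB) subsets of both tissues and smooth muscle cells (SMC) of the small intestine. Colonic SMC were not analysed here. In the colon a reducing agent was used as well when the epithelium was removed, and the digestion was stirred in another way, so tissue and preparation cannot be told apart.

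Pericytes are mural cells that sit within the basement membrane of capillaries and small venules, where they contact the endothelium. They are held there by PDGF-B from endothelial cells acting on PDGFRβ, and Notch and angiopoietin signals pass between both cell types. Many carry parts of the contractile apparatus of SMC and respond to vasoactive hormones, and they lay down matrix and can present antigen on MHC class I.

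Estimated counts summed to 6185421, 9075187 and 7860140 in small intestinal replicates 1, 2 and 3 and to 9225411, 9314458 and 13866610 in the colonic replicates. Genes with at least 1 count numbered 12710, 14269 and 15809 in the small intestinal and 15019, 14540 and 15518 in the colonic libraries. Levels are given as CPM (counts per 1000000), a gene's share of a library's counts after scaling over all 30 libraries, and sets of 3 values follow the order of replicates 1, 2 and 3 throughout. A level of 3 counts, taken as the limit of detection for counting error only, lay between 0.215 and 0.644 CPM. Fold changes are log2 of small intestine over colon, so that positive values are higher in the small intestine.

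The pericyte label held in all 6 libraries. *Rgs5*, a regulator of G protein signalling that marks pericytes, was at 39028, 21872 and 34335 CPM in the small intestine and 31035, 42917 and 26492 CPM in the colon. *Esam*, the transcript of the adhesion molecule used in the gate, was at 22.3, 203 and 104 CPM in the small intestine and 98.1, 218 and 106 CPM in the colon. *Rgs5* was high in every library and *Esam* was lowest in small intestinal replicate 1, and the tissues overlapped for both. All 25 genes of the pericyte list were tested, and their summed level was 65171, 43479 and 52450.0 CPM in the small intestine and 46891, 64105 and 40602 CPM in the colon. In small intestinal SMC the same sum averaged 7182 CPM. Of these 25 genes, 4 were higher in every small intestinal library and 1 in every colonic library, beside 6.19% and 8.48% of all genes tested, and 6 and 1 had an unadjusted p below 0.05, with 0 called by edgeR or DESeq2. The Notch receptor gene *Notch3* was at 5486, 7293 and 5743 CPM in small intestine and 2661, 4275 and 3306 CPM in colon. The matrix protein gene *Vtn*, the gap junction gene *Gja4* and the T-box factor gene *Tbx2* were also higher in every small intestinal library. *Cox4i2*, a subunit of mitochondrial cytochrome c oxidase used in oxygen-sensing cells, was at 101, 42.3 and 108 CPM in small intestine and 162, 404 and 130.2 CPM in colon, without overlap. The median log2 fold change of the pericyte list was 0.13, beside 0.01 over all 13368 genes tested.

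Transcripts of the proteins used to leave cells out were low, with *Pecam1* the highest of those given here. *Epcam* had no counts in any of the 6 libraries. *Pdgfra* was at 11.2, 10.2 and 10.8 CPM in the small intestine and 10.3, 13.4 and 8.97 CPM in the colon, and *Pdpn* at 0.429, 0.126 and 0 CPM in the small intestine and 0.215, 0.252 and 0.359 CPM in the colon. The endothelial gene *Pecam1* was at 75.5, 79.8 and 61.0 CPM in the small intestine and 39.5, 44.6 and 64.4 CPM in the colon, *Ptprc*, which encodes CD45, at 4.08, 3.91 and 22.5 CPM in the small intestine and 5.59, 3.02 and 3.52 CPM in the colon, and *Bst1*, which encodes BP3, at 0.429, 2.40 and 4.3 CPM in the small intestine and 1.83, 0.882 and 15.0 CPM in the colon. The tissues overlapped for each of these 5 genes. For comparison, *Pecam1* was at 29.4 to 65.6 CPM in the FB libraries and at 38.9, 40.1 and 165 CPM in small intestinal SMC. Endothelial markers were tested for 12 of 20 genes, of which 2 were higher in every small intestinal library (*Tek* and *Emcn*) and 1 in every colonic library (*Podxl*), against the same shares of all genes. Their summed level was 985, 424 and 333 CPM in the small intestine and 180.0, 578 and 242 CPM in the colon, led per length by *Eng*, and *Cldn5*, *Erg* and *Sox18* had no counts in any library. Fibroblast markers were tested for 17 of 20 genes and summed to 4732, 3922 and 2652 CPM in the small intestine and 2020.1, 2613 and 2450.3 CPM in the colon, led per length by *Col1a1*, where FB libraries of either tissue averaged at least 27052 CPM. *Col1a1* and *Adamdec1* were higher in every small intestinal library and *Cd81* in every colonic library. The markers of epithelium, immune cells, glia, mesothelium and red cells had no tested gene whose tissues were apart. The epithelial list shared by both tissues summed to 159.7, 39.5 and 11.3 CPM in the small intestine and 25.5, 118 and 35.6 CPM in the colon, with *Muc2* first per length but near 0 outside colonic replicates 2 and 3, and with 7 of 20 genes at 0 throughout. The small intestinal epithelial list summed to 595, 239.9 and 447 CPM in the small intestine and 428, 534 and 212 CPM in the colon, most of it *Anpep* in each library, which pericytes also express, and 10 of its 20 genes were at 0. The colonic epithelial list summed to 12.9, 61.5 and 49.9 CPM in the small intestine and 22.9, 47.6 and 62.8 CPM in the colon, led by *Slc26a3*, with 7 of 15 genes at 0. Immune markers summed to 434, 90.1 and 98.1 CPM in the small intestine and 107, 257 and 111 CPM in the colon, led per length by *Cd68*, and *Cd3g*, *Cd79b*, *Itgax* and *Tyrobp* were at 0. Glial and neuronal markers summed to 71.5, 52.0 and 50.9 CPM in the small intestine and 56.3, 53.2 and 101 CPM in the colon, led per length by *L1cam*, and *Gfap* and *Gap43* were at 0. Markers of interstitial cells of Cajal summed to 1406, 732 and 863 CPM in the small intestine and 971, 989 and 846 CPM in the colon, led by *Ano1*, and none of the 5 tested was apart. Mesothelial markers summed to 9.87, 8.21 and 1.23 CPM in the small intestine and 5.91, 1.76 and 1.51 CPM in the colon, led per length by *Wt1*, with *Upk3b* and *Msln* at 0. Lymphoid stroma markers summed to 14.2, 21.6 and 5.90 CPM in the small intestine and 2.15, 1.01 and 18.2 CPM in the colon, led per length by *Ccl19*, an uncertain gene that was higher in every small intestinal library, with *Madcam1* and *Tnfsf11* at 0. Erythroid markers summed to 1.29, 0 and 1.11 CPM in the small intestine and 0.968, 4.41 and 18.6 CPM in the colon, with *Hbb-bt*, *Hba-a1* and *Hba-a2* at 0. In bulk libraries, fewer cells of a type and less RNA per cell cannot be told apart.

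The pericyte libraries spread more widely than any other population of the series. The biological coefficient of variation was 1.02 over both pericyte groups, 1.11 within small intestinal and 0.934 within colonic pericytes, and between 0.200 and 0.685 in the other populations. Small intestinal replicate 1 stood apart. Across genes, which are not independent replicates, its log2 CPM correlated with those of small intestinal replicates 2 and 3 at 0.600 and 0.657, whereas replicates 2 and 3 correlated at 0.713. Small intestinal replicate 3 correlated with colonic replicate 3 at 0.721, above its correlation with either library of its own tissue. The first principal component placed small intestinal replicate 1 at −253.9 and the other 5 libraries between 21.3 and 74.9. Tissue took up 24.8% of the sum of squares over the 6 libraries. With so few libraries, much of such a share can arise without any tissue difference. Fold changes, lower bounds, differences and medians that moved by over 1.5 times when any library was left out are therefore followed by their range over the fits with each library left out in which they could be tested.

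Of the contractile genes, 14 of 24 were higher in every colonic library, among them *Myh11* and *Casq2*, and the calcium pump regulator *Pln* was as well. Of the MHC list 11 of 22 genes and of the interferon-induced list 24 of 56 were higher in every small intestinal library, as was the secreted glutathione peroxidase *Gpx3*. *Hox* genes, which carry the position along the gut, separated the tissues in part. Of 26 tested, 3 *Hoxc* members were higher in every small intestinal library and 6 genes, most of them posterior *Hoxa* members, in every colonic library. *Col1a1*, *Col3a1*, *Col4a1* and *Col4a2* were higher in small intestine and *Itga3*, *Itga4* and *Itga8* in colon, while the matrix and adhesion lists as a whole had medians near that of all genes. None of these genes passed the test by edgeR.

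By edgeR's quasi-likelihood test with Benjamini-Hochberg adjustment, 0 of 13368 genes (0%) reached an adjusted p below 0.05 with a fold change above 1.5 on the log2 scale, and the lowest adjusted p was 0.0886. An unadjusted p below 0.05 was found for 1091 genes (8.16%), 593 of them higher in small intestine and 498 in colon. DESeq2 called 348 genes, 170 higher in small intestine and 178 in colon, and 323 of these had groups that did not overlap. limma-voom with sample quality weights called 4, *Myh11*, *B2m*, *Gpx3* and *Acta2*. Without small intestinal replicate 1, edgeR called only *Myh11*. Every small intestinal library was above every colonic library for 827 genes (6.19%), and every colonic library was above every small intestinal library for 1134 genes (8.48%). An exact permutation test of 3 against 3 libraries cannot go below p = 0.10, so separated groups alone never reach 0.05. If the libraries were interchangeable, a gene would be apart in either direction with about that same probability of 0.10. Many of the 827 and 1134 genes can thus be apart without any tissue difference. The log2 fold change exceeded 1.5 in either direction for 3919 genes, with a median SE of 1.23 over all genes. The counts of 6.19% and 8.48% are the background for every list below. In the study both tissues were taken from the same mice, but the sources used here do not say which libraries share mice, and p-values measure the spread between these libraries. Depth also moved with tissue, since every colonic library was deeper than every small intestinal one, and its part in the results was not tested.

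**Figure D1:**
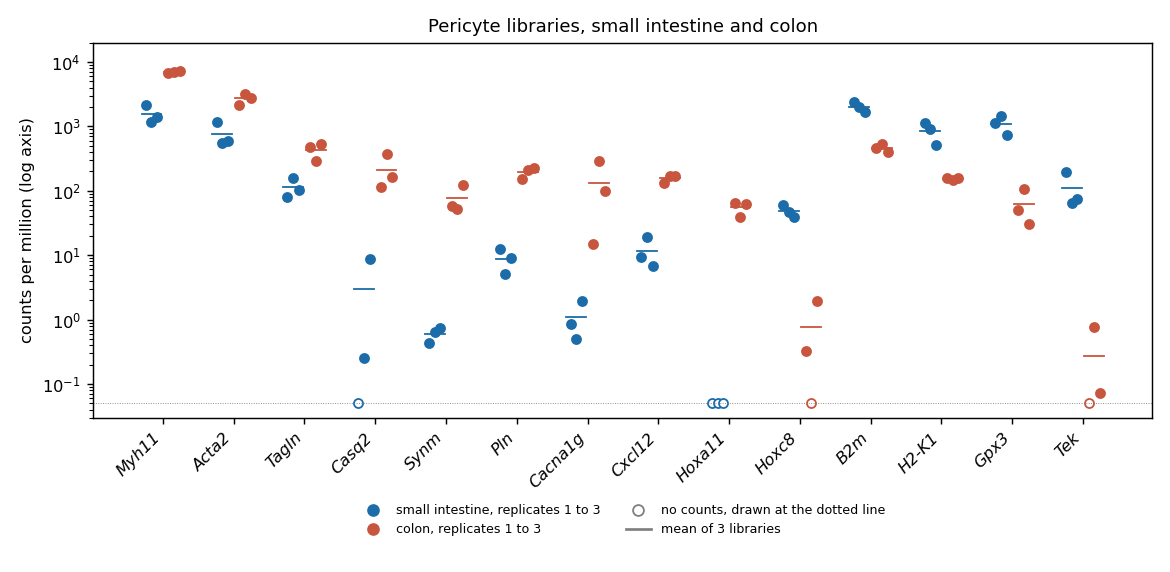
Levels of 14 genes in each pericyte library, in CPM on a log axis, with small intestine in blue and colon in red, a point for each library (open if it had no counts) and a line for the mean of 3. The tissues are apart for every gene drawn, as for *Myh11*, at 2158, 1171 and 1423 CPM in small intestine and 6867, 6939 and 7165 CPM in colon.

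Most contractile genes were higher in colonic pericytes. *Myh11*, the smooth muscle myosin heavy chain, was at 2158, 1171 and 1423 CPM in the small intestine and 6867, 6939 and 7165 CPM in the colon. The colonic libraries were nearly equal and each lay well above the highest small intestinal library. Its log2 fold change was −2.12 (SE 0.29), with an adjusted p of 0.0886 by edgeR's quasi-likelihood test and 0.0178 by DESeq2, both Benjamini-Hochberg. *Acta2*, smooth muscle α-actin, was at 1179.6, 554 and 595 CPM in small intestine and 2189.7, 3228 and 2769 CPM in colon (log2 fold change −1.79, SE 0.37). *Tagln*, the actin-binding protein transgelin, was at 81.1, 157 and 103 CPM in small intestine and 474, 286 and 538 CPM in colon (log2 fold change −1.91, SE 0.49). For both, all colonic libraries were above all small intestinal libraries, and small intestinal replicate 1 held the most *Acta2* of its tissue but the least *Tagln*. The tropomyosin genes were closer together, with *Tpm1* at 1539 to 2267 CPM in small intestine and 2994 to 3937 CPM in colon and *Tpm2* at 352 to 607 CPM in small intestine and 1000.1 to 1441 CPM in colon. The calponin gene *Cnn1* was at 1.29, 8.59 and 11.4 CPM in small intestine and 77.3, 20.8 and 98.2 CPM in colon and the enteric γ-actin gene *Actg2* at 51.7, 11.2 and 40.6 CPM in small intestine and 132, 216 and 133 CPM in colon, without overlap.

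*Synm*, which encodes the intermediate filament protein synemin, was at 0.429, 0.631 and 0.738 CPM in small intestine and 58.5, 52.8 and 124 CPM in colon (log2 fold change −6.98, SE 1.12). *Casq2*, a calcium-binding protein of the sarcoplasmic reticulum, was at 0, 0.253 and 8.61 CPM in small intestine and 113, 368 and 162 CPM in colon (log2 fold change −6.14, SE 1.55, range −10.36 to −5.51). *Synm* was near the limit of detection in every small intestinal library, and *Casq2* was so in small intestinal replicates 1 and 2 only. *Itga8*, an integrin chain of contractile mesenchymal cells, was at 38.6, 17.9 and 48.0 CPM in small intestine and 312, 363 and 291 CPM in colon (log2 fold change −3.19, SE 0.58). Against the general direction, the desmin gene *Des* and the actin-binding *Synpo2* were higher in every small intestinal library, at 1109 to 1202 CPM in small intestine and 651 to 783 CPM in colon for *Des* and 765 to 1253 CPM in small intestine and 464 to 681 CPM in colon for *Synpo2*.

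Of the 24 contractile genes, all tested, 14 were higher in every colonic library and 2 in every small intestinal library, and 0 were called by edgeR. An unadjusted p below 0.05 was found for 12 in the colonic and 1 in the small intestinal direction, and DESeq2 called 5, all higher in colon. The median log2 fold change of the 24 genes was −1.46, beside 0.01 over all genes, and ranged from −1.60 to −1.01 when each library was left out. They are also the markers of SMC, and their summed level was 17917, 11588 and 13626 CPM in the small intestine and 24920.5, 28356 and 29143 CPM in the colon, led per length by *Cald1*, and averaged 48815 CPM in small intestinal SMC. *Cnn1* averaged 1014 ± 95.1 CPM (SD, n = 3) in small intestinal SMC and *Actg2* 1712 ± 381 CPM (SD, n = 3), several times the level in any pericyte library. *Ncam1*, at 1017, 1202 and 3802 CPM in small intestinal SMC, was at 10.9, 27.1 and 25.6 CPM in the small intestine and 10.9, 28.9 and 32.8 CPM in the colon. *Pdpn*, on which the SMC gate was positive, was at 13.1, 5.59 and 11.5 CPM in small intestinal SMC and at most 0.429 CPM in any pericyte library. The sort of pericytes itself left out NCAM hi and PDPN+ cells. How far SMC in the sort contributed to the contractile genes was not tested.

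Genes that set the calcium level and the membrane potential moved the same way in part. *Pln*, phospholamban, which holds back the calcium pump of the sarcoplasmic reticulum, was at 12.4, 5.18 and 8.98 CPM in small intestine and 154, 211 and 225 CPM in colon (log2 fold change −4.45, SE 0.72). The pump genes it acts beside were also higher in every colonic library, *Atp2a2* at 215, 729 and 453 CPM in small intestine and 870.3, 1250.1 and 1642 CPM in colon and *Atp2a3* at 6.87, 7.58 and 28.9 CPM in small intestine and 184, 222 and 68.9 CPM in colon. Small intestinal replicate 3 held the most *Atp2a3* of its tissue. *Cacna1g*, the pore of a T-type calcium channel, was at 0.858, 0.505 and 1.97 CPM in small intestine and 15.2, 286 and 98.6 CPM in colon (log2 fold change −6.87, SE 1.31, range −7.59 to −5.66). Its colonic libraries themselves spread widely, with replicate 1 far below replicate 2, yet none reached down to the small intestinal ones. The L-type channel subunit gene *Cacnb2* was at 26.4, 18.1 and 84.5 CPM in small intestine and 453, 166 and 199 CPM in colon, with every small intestinal library below every colonic one. *Kcnmb1*, the auxiliary chain of the large-conductance potassium channel, was at 26.5 to 53.3 CPM in small intestine and 79.0 to 139 CPM in colon. On the other side, the inositol trisphosphate receptor gene *Itpr2* was at 281, 376 and 164 CPM in small intestine and 73.7, 149 and 19.0 CPM in colon, without overlap. Of 38 channel and pump genes tested, of 43 listed, 8 were higher in every colonic library and 2 in every small intestinal library, with 0 called by edgeR, 8 and 2 at an unadjusted p below 0.05, 5 called by DESeq2 and a median log2 fold change of −0.79.

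Receptors for vasoactive signals were divided. *Agtr1a*, the angiotensin II receptor, was at 485, 636 and 276 CPM in small intestine and 25.9, 131 and 48.7 CPM in colon (log2 fold change 2.78, SE 0.67, range 2.38 to 3.65). It was the reverse for *Adra1a*, an α-adrenergic receptor, at 2.58, 42.3 and 48.2 CPM in small intestine and 191, 161 and 154 CPM in colon, lowest in small intestinal replicate 1. *P2rx1*, an ATP-gated cation channel, was at 0.429, 0 and 0.492 CPM in small intestine and 35.3, 40.2 and 53.3 CPM in colon (log2 fold change −7.08, SE 1.53, range −7.70 to −6.47). It lay at or near the limit of detection in all small intestinal and well above it in all colonic libraries. *S1pr3*, a sphingosine-1-phosphate receptor, was at 41.6, 161 and 71.5 CPM in small intestine and 173, 347 and 428 CPM in colon, and the endothelin receptor gene *Ednrb* at 27.9, 16.2 and 43.5 CPM in small intestine and 61.0, 224 and 76.5 CPM in colon. *Calcrl*, part of the receptors for adrenomedullin and CGRP, was at 113 to 209.7 CPM in small intestine and 357 to 454 CPM in colon. *Gucy1a1*, a chain of the nitric oxide sensor guanylate cyclase, was higher in every small intestinal library, at 1554, 1352 and 1246 CPM in small intestine and 902, 905 and 720.1 CPM in colon. Of 39 tested genes of the 60 on this list, 7 were higher in every colonic and 4 in every small intestinal library, with a median of −0.05, near that of all genes. DESeq2 called 1 in each direction and edgeR 0, with 2 small intestinal and 5 colonic genes at an unadjusted p below 0.05.

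Several MHC class I genes were higher in small intestinal pericytes. *B2m*, the light chain common to class I molecules, was at 2405, 1982 and 1697 CPM in the small intestine and 458, 526 and 398 CPM in the colon (log2 fold change 2.16, SE 0.32). Its adjusted p was 0.125 by edgeR's quasi-likelihood test and 0.00555 by DESeq2, both Benjamini-Hochberg. *H2-K1*, a classical class I heavy chain, was at 1125, 903 and 521 CPM in small intestine and 159.7, 146 and 156 CPM in colon (log2 fold change 2.49, SE 0.42). Every small intestinal library held several times the colonic level of both genes, and the colonic libraries hardly differed among themselves. *H2-D1* was at 629, 326 and 212 CPM in small intestine and 102, 115 and 158 CPM in colon and the non-classical genes *H2-Q7* at 74.2, 379 and 198 CPM in small intestine and 43.5, 21.7 and 24.6 CPM in colon and *H2-T23* at 339, 135 and 47.1 CPM in small intestine and 15.8, 45.1 and 9.19 CPM in colon, again without overlap. *Nlrc5*, the transactivator of class I genes, was at 117, 69.2 and 64.0 CPM in small intestine and 16.6, 1.51 and 7.04 CPM in colon. *Ciita*, the transactivator of class II genes, went the other way at a low level, 1.29, 2.53 and 1.11 CPM in small intestine and 6.56, 5.92 and 3.16 CPM in colon. Of 22 tested genes of the 31 on the list, 11 were higher in every small intestinal and 1 in every colonic library, with a median of 1.43 and of 1.18 without small intestinal replicate 1. edgeR called 0 of them, 8 had an unadjusted p below 0.05 in the small intestinal direction, and DESeq2 called 4. Their summed level was 5540.3, 4848 and 3555 CPM in the small intestine and 1220.3, 1375 and 1296 CPM in the colon.

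Interferon-induced genes followed, with small intestinal replicate 1 the highest for many of them. *Irgm2*, an immunity-related GTPase, was at 1534, 319 and 218 CPM in small intestine and 81.0, 59.6 and 81.7 CPM in colon (log2 fold change 3.25, SE 0.73, range 1.86 to 3.66). Small intestinal replicate 1 was far above replicates 2 and 3, which still lay above every colonic library, and without it the log2 fold change was 1.86. *Rnf213*, a large ubiquitin ligase, was at 1068, 664 and 567 CPM in small intestine and 215, 214 and 273 CPM in colon, the membrane protein gene *Ifitm3* at 2195, 1839.7 and 894 CPM in small intestine and 608, 654 and 447 CPM in colon and the nucleic acid sensor gene *Zbp1* at 176, 15.5 and 57.9 CPM in small intestine and 0.323, 0.126 and 2.01 CPM in colon. *Gbp4*, a guanylate-binding protein, was at 251, 41.2 and 99.9 CPM in small intestine and 16.6, 19.3 and 20.2 CPM in colon. *Gbp6* was also apart, at 358, 165 and 240.2 CPM in small intestine and 37.1, 29.7 and 24.2 CPM in colon, but is uncertain because 74.2% of its 31-mers occurred in other genes. Of 58 genes on the list, 56 were tested, 24 were higher in every small intestinal library and 1, *Ciita*, in every colonic library. edgeR called 0, 24 had an unadjusted p below 0.05 and DESeq2 called 9, all higher in small intestine. The median log2 fold change was 1.59, and 1.28 without small intestinal replicate 1, the lowest value when each library was left out. The summed level was 15154, 7642 and 5547 CPM in the small intestine and 3077, 3021 and 2480.5 CPM in the colon, led per length by *Ifitm3*. The list holds 9 uncertain genes and shares *Nlrc5*, *Ciita*, *Psmb8* and *Psmb9* with the MHC list. Immune cell markers, whose summed levels are given above, were highest in small intestinal replicate 1 and colonic replicate 2 and did not separate the tissues.

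Some *Hox* genes separated the tissues. *Hoxa11* was at 0, 0 and 0 CPM in small intestine and 64.8, 38.8 and 63.0 CPM in colon, which makes it at least 119.7-fold higher in colon, set against 3 counts in each small intestinal library. *Hoxa10* was at 0, 0 and 0 CPM in small intestine and 19.4, 93.1 and 16.4 CPM in colon, at least 92.7-fold higher in colon (range 38.6 to 121), and *Hoxa13* at 0, 0 and 0 CPM in small intestine and 9.68, 7.06 and 44.6 CPM in colon, at least 44.1-fold higher (range 18 to 58.5). None of these 3 genes had a count in any small intestinal library, while each colonic library had them. *Hoxa9* was at 0.215, 0 and 0.738 CPM in small intestine and 57.0, 333 and 143 CPM in colon (log2 fold change −9.02, SE 1.37, range −10.77 to −8.21). *Hoxc8* was at 60.3, 47.1 and 39.2 CPM in small intestine and 0.323, 0 and 1.94 CPM in colon (log2 fold change 5.96, SE 1.58, range 5.4 to 8.10), *Hoxc4* at 178, 151 and 44.5 CPM in small intestine and 8.60, 14.1 and 11.3 CPM in colon (log2 fold change 3.48, SE 0.84) and *Hoxc6* at 83.5, 132 and 60.4 CPM in small intestine and 0.860, 22.6 and 0.144 CPM in colon. *Hoxc4* and *Hoxc8* were clear of the colonic libraries in each small intestinal one, and for *Hoxc6* colonic replicate 2 came closer than the others. *Hoxd4* and *Hoxd9* were also higher in every colonic library. Of 39 *Hox* genes, 26 were tested, 3 were higher in every small intestinal and 6 in every colonic library, and the median was 0.60. DESeq2 called 2 and 5, edgeR 0, and 5 and 6 had an unadjusted p below 0.05.

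Among other regional and mesenchymal transcription factors, 3 of 30 tested were higher in every small intestinal library (*Tbx2*, *Gata5* and *Ebf2*) and 5 in every colonic library (*Tbx3*, *Isl1*, *Foxc1*, *Six2* and *Mef2c*). *Foxc1*, a forkhead factor of mural cells and their precursors, was at 0, 6.06 and 2.09 CPM in small intestine and 18.2, 29.4 and 129.9 CPM in colon. *Mef2c*, a factor of muscle and vascular genes, was at 463 to 614 CPM in small intestine and 970.4 to 1051 CPM in colon. The median of the list was 0.32, with 2 and 3 genes at an unadjusted p below 0.05, 1 called by DESeq2 and 0 by edgeR.

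Of the basement membrane collagens, *Col4a1* was at 5502, 3092 and 2379 CPM in small intestine and 1722, 1569.8 and 1209.9 CPM in colon (log2 fold change 1.31, SE 0.35) and *Col4a2* at 5122, 3414 and 3011 CPM in small intestine and 2063, 2087 and 1835 CPM in colon (log2 fold change 0.97, SE 0.28), both higher in every small intestinal library and highest in replicate 1. *Nid1*, the linker protein nidogen, was at 1065, 915 and 727 CPM in small intestine and 495, 249 and 476 CPM in colon, and fibronectin, *Fn1*, at 2051, 1232 and 1111 CPM in small intestine and 179, 556 and 89.7 CPM in colon (log2 fold change 2.44, SE 0.62, range 2.02 to 3.48). *Col18a1* was the reverse, at 139.9 to 171 CPM in small intestine and 229 to 365 CPM in colon. Of 28 basement membrane genes tested, 8 were higher in every small intestinal and 4 in every colonic library, with a median of 0.03, close to that of all genes. At an unadjusted p below 0.05 were 8 and 3, DESeq2 called 1 in each direction and edgeR 0.

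In the interstitial matrix, *Col1a1* was at 1684, 1518 and 1119 CPM in small intestine and 609, 448 and 746 CPM in colon (log2 fold change 1.28, SE 0.35), *Col3a1* at 2166, 1411 and 1235 CPM in small intestine and 829, 908 and 866 CPM in colon and *Col12a1*, a collagen that binds fibrils, at 314, 187 and 199.7 CPM in small intestine and 39.8, 62.1 and 24.1 CPM in colon (log2 fold change 2.5, SE 0.61). *Col6a2* was at 757 to 1426 CPM in small intestine and 201 to 534 CPM in colon. The small intestinal libraries were above the colonic ones for each of these collagens. In the opposite direction, thrombospondin, *Thbs1*, was at 7.73, 42.0 and 20.4 CPM in small intestine and 158, 146 and 495 CPM in colon (log2 fold change −3.51, SE 0.83, range −4.23 to −2.67), and the collagen cross-linking enzyme *Lox* at 32.4, 24.6 and 23.1 CPM in small intestine and 88.9, 139 and 94.5 CPM in colon. Of 47 genes tested, 10 were higher in every small intestinal and 6 in every colonic library, with a median of 0.08, 9 and 3 at an unadjusted p below 0.05, 2 and 1 called by DESeq2 and 0 by edgeR. The fibroblast marker sum was also higher in every small intestinal library, and without *Col1a1* it was 3048, 2404 and 1534 CPM in the small intestine and 1412, 2165 and 1705 CPM in the colon. *Pdgfra*, whose protein the gate selected against, was at 8.97 to 13.4 CPM in all 6 libraries. The part of FB in the matrix genes was not tested. Among proteases and inhibitors, 2 of 27 were higher in every small intestinal library, including the gelatinase *Mmp2* at 215, 82.8 and 159 CPM in small intestine and 29.5, 6.05 and 57.7 CPM in colon, and 4 in every colonic library, including *Adamtsl1* at 10.1, 4.29 and 67.0 CPM in small intestine and 282, 253 and 569.9 CPM in colon, with a median of 0.00.

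Among adhesion molecules, the classical cadherin gene *Cdh2* was at 686, 547 and 407 CPM in small intestine and 248, 259 and 194 CPM in colon, and *Cdh11* at 261, 16.3 and 28.2 CPM in small intestine and 2.47, 1.13 and 2.15 CPM in colon (log2 fold change 5.75, SE 1.32, range 3.52 to 6.26), with small intestinal replicate 1 far above the rest and a log2 fold change of 3.52 without it. *Itga4*, the integrin chain that binds VCAM-1 and fibronectin, was at 353, 282 and 515 CPM in small intestine and 1160.0, 1557 and 1365 CPM in colon (log2 fold change −1.81, SE 0.36). *Itga3*, a laminin-binding chain, had no counts in small intestinal libraries and was at 1.94, 20.5 and 56.2 CPM in the colonic ones, at least 56.6-fold higher (range 24.2 to 82.7). The guidance gene *Slit3* was at 149, 70.3 and 154 CPM in small intestine and 469, 270.1 and 681 CPM in colon. *Itga3* and *Itga4* were thus higher in all colonic libraries and *Cdh2* and *Cdh11* in all small intestinal ones. Of 48 tested, 7 were higher in every small intestinal and 9 in every colonic library, with a median of −0.09.

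**Figure D2:**
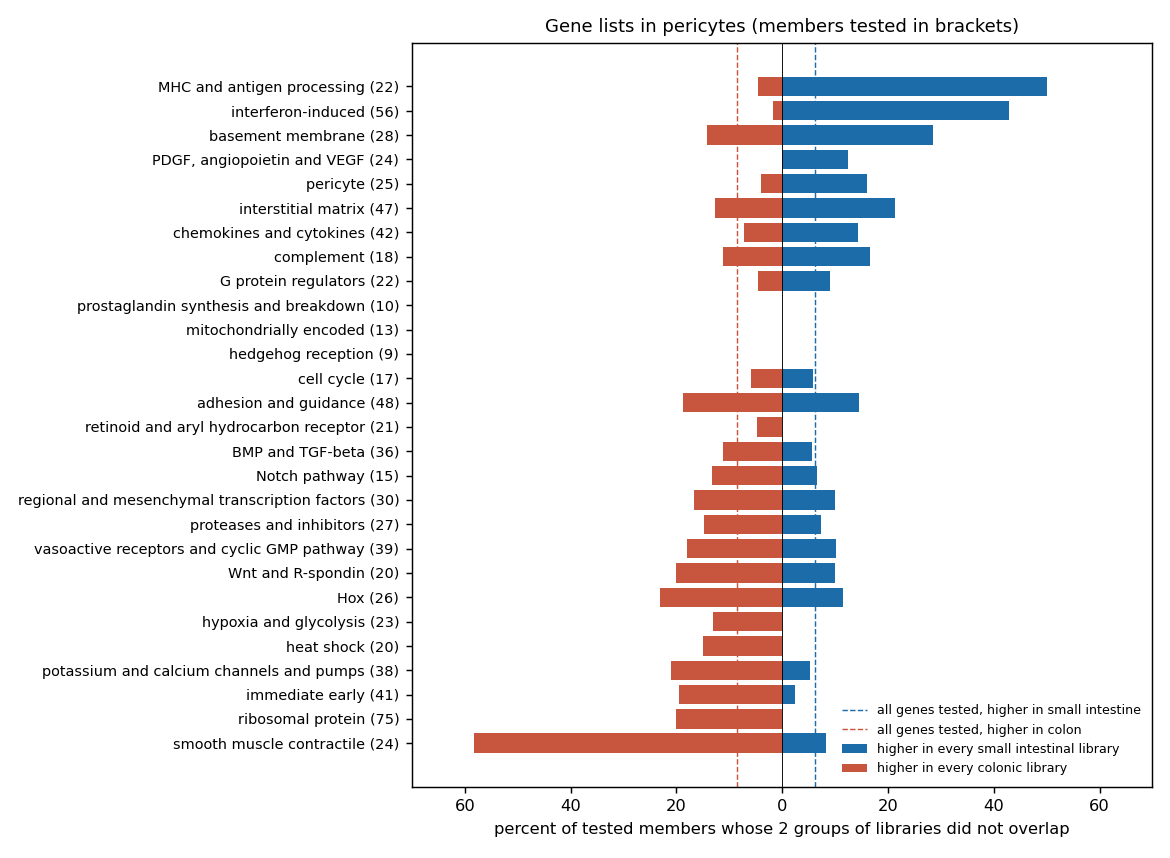
Share of the tested members of each gene list that were higher in every small intestinal library (blue, to the right) or in every colonic library (red, to the left), in percent, with dashed lines for all genes tested at 6.19% and 8.48%. The contractile list stands out to the left, with 14 of 24, and the MHC and interferon-induced lists to the right, with 11 of 22 and 24 of 56.

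Of the signals between endothelium and pericytes, *Tek* stood out. It encodes the angiopoietin receptor TIE2, best known from endothelial cells, and was at 194, 64.1 and 73.4 CPM in the small intestine and 0, 0.756 and 0.0718 CPM in the colon (log2 fold change 8.68, SE 1.52, range 7.98 to 10.98). It was present in each small intestinal library and near or below the limit of detection in each colonic library. *Tek* also averaged 307 ± 35.4 CPM in colonic CD81+ FB and 46.8 ± 8.86 CPM in small intestinal CD34+ FB (SD, n = 3). Of the other endothelial markers, *Emcn* reached 7.51, 5.68 and 4.80 CPM in small intestine and 0, 0.252 and 0.574 CPM in colon. *Podxl* was higher in every colonic library. *Pecam1* overlapped, at 61.0 to 79.8 CPM in small intestine and 39.5 to 64.4 CPM in colon. The part of endothelial cells in *Tek* was not tested. The growth factor genes *Vegfb*, at 77.7, 44.6 and 19.2 CPM in small intestine and 0.968, 7.44 and 1.72 CPM in colon, and *Vegfc*, at 5.36, 92.7 and 11.8 CPM in small intestine and 0.323, 0.882 and 0.0718 CPM in colon, were also higher in every small intestinal library. *Vegfc* rested mostly on small intestinal replicate 2. With *Tek*, these were the 3 of 24 PDGF, angiopoietin and VEGF genes that did not overlap, the colon having 0, and the median was 0.33. DESeq2 called all 3 and edgeR 0, with 4 at an unadjusted p below 0.05.

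In the Notch list, 1 of 15 tested genes (*Notch3*) was higher in every small intestinal and 2 (*Hes1* and *Hey2*) in every colonic library, with a median of −0.24. BMP and TGF-beta genes gave 2 and 4 of 36 and a median of 0.04, including the ligand *Bmp5* at 42.5, 11.4 and 36.9 CPM in small intestine and 109, 141 and 123 CPM in colon. Wnt and R-spondin genes gave 2 and 4 of 20 and a median of 0.24. The Wnt receptor genes *Fzd2*, at 0, 0.126 and 0.984 CPM in small intestine and 7.63, 20.7 and 83.6 CPM in colon, and *Fzd7*, at 47.4, 34.0 and 74.8 CPM in small intestine and 187, 115 and 449 CPM in colon, were higher in every colonic library, and colonic replicate 3 had most of both. None of the 9 hedgehog reception genes tested was apart, at a median of 0.66.

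Among chemokine genes, *Cxcl12*, the ligand of CXCR4 that holds leukocytes and precursors near vessels, was at 9.44, 18.9 and 6.89 CPM in the small intestine and 131, 168 and 170.4 CPM in the colon (log2 fold change −3.72, SE 0.75). *Cxcl14* had no counts in small intestinal libraries and was at 28.4, 30.2 and 13.1 CPM in colonic ones, at least 51.5-fold higher. The eosinophil chemokine *Ccl11* was at 551, 880.5 and 516 CPM in small intestine and 178, 299.6 and 161 CPM in colon (log2 fold change 1.63, SE 0.44). All colonic libraries exceeded all small intestinal ones for *Cxcl12* and *Cxcl14*, and the reverse held for *Ccl11*. The receptor genes *Il6st*, the common chain of the interleukin-6 family, at 2528, 3033 and 1930.4 CPM in small intestine and 1236, 985 and 1216 CPM in colon, and *Tnfrsf21*, at 1761, 675 and 837 CPM in small intestine and 227, 433 and 448 CPM in colon, were higher in every small intestinal library. Of 42 chemokine and cytokine genes tested, 6 were higher in every small intestinal and 3 in every colonic library, with a median of 0.57, 8 and 2 at an unadjusted p below 0.05, 2 called by DESeq2 in each direction and 0 by edgeR. Complement genes gave 3 and 2 of 18, and *C4b* was at 102, 33.5 and 61.4 CPM in small intestine and 3.66, 1.26 and 7.32 CPM in colon (log2 fold change 4.01, SE 1.1, range 3.53 to 4.76).

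Some immediate early genes, which can rise during tissue digestion, were higher in every colonic library. Of 41 tested, 8 were so and 1 was higher in every small intestinal library, with a median of −0.33 (range −1.09 to −0.17). edgeR called 0, DESeq2 called 3 higher in colon, and 2 small intestinal and 5 colonic genes had an unadjusted p below 0.05. The summed levels overlapped, at 10659, 20656 and 11047.5 CPM in small intestine and 13643, 18790 and 16141.5 CPM in colon. *Nr4a3*, an orphan nuclear receptor, was at 9.01, 2.65 and 36.0 CPM in small intestine and 130.3, 166 and 103 CPM in colon, the stress gene *Gadd45g* at 6.87, 49.1 and 46.6 CPM in small intestine and 149, 397 and 167 CPM in colon and *Mafk* at 4.72, 19.1 and 21.4 CPM in small intestine and 102, 106 and 139 CPM in colon. *Dusp6*, a phosphatase that ERK signalling induces, was the exception, at 338, 71.1 and 43.8 CPM in small intestine and 18.7, 39.3 and 2.58 CPM in colon. As preparation differed between the tissues, its part here cannot be told apart from tissue. Ribosomal protein genes had 15 of 75 higher in every colonic library and 0 in every small intestinal library, with a median of −0.56. Heat shock genes had 3 of 20 and 0, hypoxia and glycolysis genes 3 of 23 and 0, with medians of −0.16 and −0.79, the latter −0.38 without small intestinal replicate 1. Retinoid and aryl hydrocarbon receptor genes had 1 of 21 apart and a median of 0.06 (range −0.85 to 0.39), G protein regulators 3 of 22 and −0.27, and cell cycle genes 2 of 17 and 0.21. None was apart among 10 prostaglandin genes (median 0.26, range −0.07 to 1.07), 13 mitochondrially encoded genes (median −0.18) or 3 sex-linked genes (median −0.02, range −0.72 to −0.01).

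Among the 12 genes with the lowest p on the small intestinal side, *Gpx3*, the secreted glutathione peroxidase, was at 1134, 1436 and 731 CPM in the small intestine and 49.8, 108 and 30.8 CPM in the colon (log2 fold change 4.16, SE 0.57, range 3.83 to 4.80). Its lowest small intestinal library held several times the highest colonic one, and its adjusted p was 0.0886 by edgeR's quasi-likelihood test and 1.86e-06 by DESeq2, both Benjamini-Hochberg. *Marcks*, a substrate of protein kinase C, was at 592, 783 and 447 CPM in small intestine and 116, 148 and 98.9 CPM in colon (log2 fold change 2.35, SE 0.44), and *Ly6e*, a surface protein anchored by a lipid, at 369, 483 and 439.8 CPM in small intestine and 81.5, 63.3 and 98.1 CPM in colon (log2 fold change 2.43, SE 0.46). *Gabra3*, a chain of the GABA type A receptor, was at 96.4, 90.9 and 52.5 CPM in small intestine and 1.29, 1.13 and 1.94 CPM in colon (log2 fold change 5.78, SE 1.01), and *Lcp2*, an adaptor of immune receptor signalling, at 118, 202 and 37.4 CPM in small intestine and 4.52, 2.52 and 4.16 CPM in colon (log2 fold change 5.01, SE 0.97, range 4.41 to 5.42). For each of them every small intestinal library was above the highest colonic one. *Efcc1* was at 137, 125 and 9.72 CPM in small intestine and 0.860, 0.126 and 0.287 CPM in colon (log2 fold change 7.72, SE 1.45, range 7.26 to 8.61) and *Fam98c* at 117, 62.0 and 28.8 CPM in small intestine and 0.538, 0.126 and 0.287 CPM in colon (log2 fold change 7.73, SE 1.29), both near the limit of detection in colon. *Gm28661* is uncertain, since all of its 31-mers occurred in other genes, and it was at 302, 4.42 and 139.8 CPM in small intestine and 0.108, 0 and 0 CPM in colon.

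On the colonic side, *Cd81*, a tetraspanin that marks a subset of FB, was at 0.858, 2.78 and 0.369 CPM in the small intestine and 224, 209 and 171 CPM in the colon (log2 fold change −7.19, SE 0.98, range −8.35 to −6.75), near absent from every small intestinal library and even across the colonic ones. *Fam129a* was at 10.9, 4.55 and 13.7 CPM in small intestine and 214, 219 and 196 CPM in colon (log2 fold change −4.41, SE 0.72) and *Olfml2a* at 95.5, 25.5 and 54.1 CPM in small intestine and 372, 526 and 518 CPM in colon (log2 fold change −2.99, SE 0.58). *Asb2*, part of a ubiquitin ligase in muscle cells, was at 0, 0.126 and 0 CPM in small intestine and 41.9, 77.6 and 33.6 CPM in colon, and *Sez6l* at 0, 0 and 0.123 CPM in small intestine and 26.2, 98.6 and 9.76 CPM in colon. Each was above all small intestinal libraries in all colonic ones, with *Sez6l* uneven among them. With *Myh11*, *Hoxa9*, *Hoxa11*, *Synm*, *Pln*, *Itga8* and *Cacna1g*, these were the 12 with the lowest p on the colonic side, and none was called by edgeR.

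The tissue difference of pericytes was then compared with that of FB, in which PDGFRα hi and Fgfr2+ subsets had been sorted from both tissues. Unlike pericytes, these FB were gated differently by tissue, on PDGFRα in the small intestine and on PDPN in the colon. Fgfr2+ FB were also CD34- in the small intestine and CD34+ in the colon. In FB, tissue and gate therefore cannot be told apart, which holds for every difference from FB below. The question was which tissue differences were larger or smaller in pericytes than in FB. For 8 of the 24 contractile genes, among them *Myh11*, the effect was more negative in pericytes, which had more of them in colon. For *Fn1* and *Col3a1* it was more positive in pericytes, which had more of both in small intestine. The summed levels of the interferon-induced and MHC lists averaged higher in small intestine in pericytes and in both FB subsets. Over the 18 libraries of these 3 populations, the difference of the tissue effects was called for 197 of 16370 genes (1.2%) by edgeR, 115 with a more positive and 82 with a more negative effect in pericytes. In pericytes, 72 of the 115 were higher in every small intestinal library and 2 in every colonic library, and 69 of the 82 were higher in every colonic library and 1 in every small intestinal library. As the contrast that chose these genes holds the same pericyte libraries, these splits were largely set by the choice.

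In PDGFRα hi FB, *Myh11* averaged 1533 ± 491 CPM for the small intestine and 457 ± 154 CPM for the colon (SD, n = 3). In Fgfr2+ FB, the means were 254 ± 54.8 and 59.0 ± 31.2 CPM (SD, n = 3). Pericytes and FB were thus on opposite sides, and the difference of the tissue effects was −4.09 (SE 0.46) on the log2 scale, with an adjusted p of 1.49e-04 by edgeR's quasi-likelihood test with Benjamini-Hochberg adjustment. Of the 24 contractile genes, 8 had a more negative effect in pericytes and 0 a more positive one, and the 8 were *Myh11*, *Acta2*, *Tagln*, *Tpm2*, *Mylk*, *Casq2*, *Synm* and *Itga8*, of which *Tpm2* was called in only 3 of the 6 fits with a pericyte library left out and the others in all. *Mylk*, the myosin light chain kinase, was at 2115 to 3005 CPM in small intestine and 3233 to 3742 CPM in colon in pericytes, with a log2 fold change of 0.81 in PDGFRα hi and 2.04 in Fgfr2+ FB. *Rgs5*, whose tissues overlapped in pericytes, had log2 fold changes of 2.25 in PDGFRα hi and 2.00 in Fgfr2+ FB, and its difference was −2.22 (SE 0.34). *Cxcl12* was level in FB, at 1473 ± 197 and 1358 ± 227 CPM in the PDGFRα hi subset, and its difference was −3.68 (SE 0.41). FB of either tissue held more *Cxcl12* than pericytes did.

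Some matrix genes had positive differences. In PDGFRα hi FB *Fn1* averaged 4883 ± 241 CPM (small intestine) and 9955 ± 2130.5 CPM (colon), and in Fgfr2+ FB 7351 ± 682 and 6076 ± 1164 CPM (SD, n = 3), and its difference was 2.77 (SE 0.52, range 2.36 to 3.82). The difference is taken from the mean of both FB subsets, whose log2 fold changes had opposite signs for *Fn1* (−1.06 in PDGFRα hi and 0.31 in Fgfr2+ FB), *Col12a1* (0.60 and −1.87), *Itga8* (−1.76 and 4.03) and *Agtr1a* (−3.60 and 1.16), among others. *Col12a1* gave 3.1 (SE 0.36) and *Col3a1* 2.59 (SE 0.33). Of 47 interstitial matrix genes, 7 were called positive and 2 negative, and of 28 basement membrane genes 2 and 1. Both FB subsets averaged more *Fn1* and *Col12a1* than pericytes in either tissue. *Gpx3* gave 3.51 (SE 0.59, range 3.2 to 4.16) and *Tek* 11.33 (SE 1.47, range 10.65 to 13.63). Of the interferon-induced list 0 were called positive and 1 negative, and of the MHC list 0 in either direction. Summed interferon-induced levels in PDGFRα hi FB averaged 5337 CPM for the small intestine and 2856 CPM for the colon. The spread of pericytes exceeded that of FB, with coefficients of 1.02 against 0.412 to 0.629, and the model gave them a common spread. A common spread can understate that of pericytes, so that genes are called too easily. Without small intestinal pericyte replicate 3 the count was 547, and DESeq2 called 1121.

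**Figure D3:**
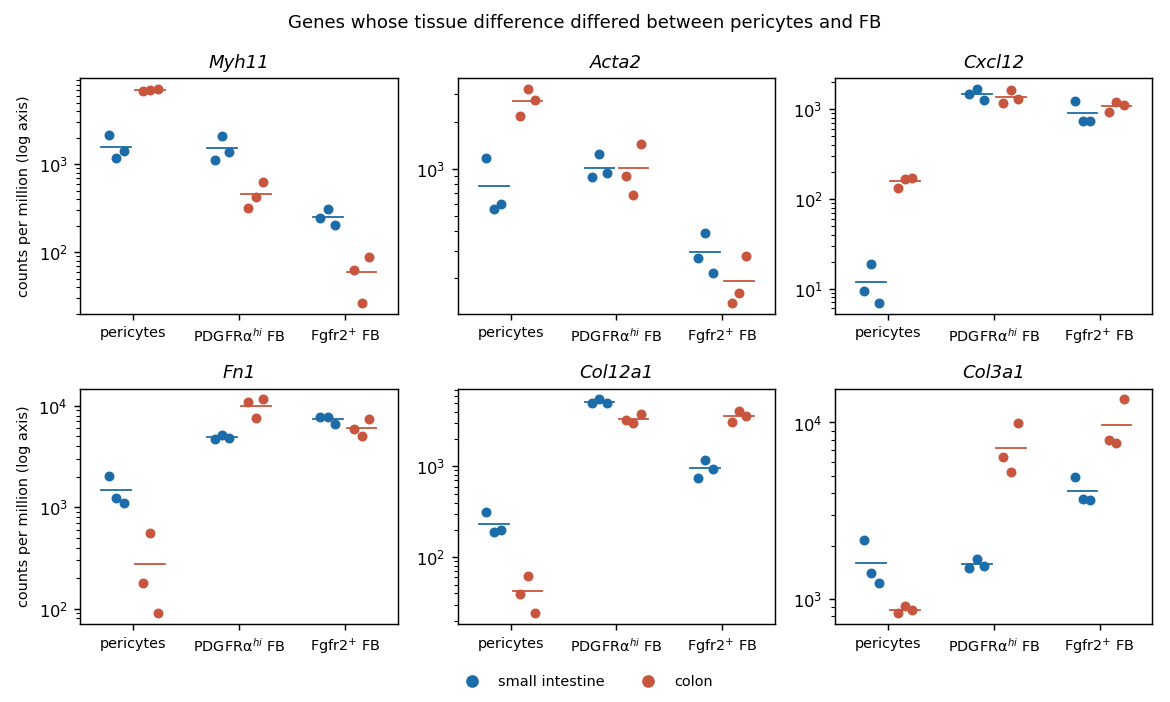
Levels of 6 genes in CPM on a log axis in pericytes, PDGFRα hi FB and Fgfr2+ FB of the small intestine (blue) and colon (red), with a point for each library and a line for the mean of 3. *Myh11* is higher in colonic than small intestinal pericytes and lower in colonic than small intestinal FB of either subset.

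Genes that marked the tissue in FB kept their side in pericytes only in part. By edgeR, 98 of 15673 genes (0.625%) were called in both FB subsets in the same direction, 44 higher in small intestine and 54 in colon, none of these libraries being a pericyte library. Of the 44, 39 were tested in pericytes, where 17 were higher in every small intestinal library and 4 in every colonic library. Their log2 fold change was above 0 for 30 and below 0 for 9, with a median of 1.63. Of the 54, 43 were tested, where 0 were higher in every small intestinal and 13 in every colonic library. By sign, 12 were above 0 and 31 below, and their median was −0.74. Among the 17 were *Lcp2*, *Irgm2*, *H2-Q7*, *Hoxc4*, *Hoxc6*, *Hoxc8*, *Ccl11* and *Des*, and among the 13 *Hoxa9*, *Hoxa10*, *Hoxa11*, *Hoxa13*, *Fam129a*, *Itga4* and *Lox*. *Myh11* and *S1pr3* were among the 4 that were instead higher in every colonic pericyte library.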

How the data were processed

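MSC subsets were sorted by flow cytometry, their RNA amplified and sequenced as single reads in the study. Per the submitters' processing notes, reads were trimmed with Trim Galore 0.4.0, checked with FastQC 0.11.2 and quantified with kallisto 0.42.5. The authors deposited kallisto's estimated count and TPM of every transcript in each library. Estimated counts of the 97116 transcripts, of 98492, that matched GENCODE M21 were summed to 32342 genes and rounded, and the deposited TPM values were used for comparisons per length and for length-scaled counts. Groups came from the labels.

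Small intestinal and colonic pericytes, 3 libraries each, were compared by edgeR 4.0.16 (R 4.3.3), with TMM normalization, the quasi-likelihood test and Benjamini-Hochberg adjustment, for genes that reached 6 counts in 3 or more libraries. A gene was called at an adjusted p below 0.05 and a log2 fold change above 1.5 in either direction. The SE is the log2 fold change over the square root of F. The difference from FB was a contrast over 18 libraries, and FB were tested in 12. The code was tested on simulated data. DESeq2 1.42.0, limma 3.58.1, other normalizations, filters and designs and leaving out each library were tried as alternatives. Named genes were, for each direction, the 12 of lowest p among those whose groups did not overlap, where fewer than 12 were called, with members of the gene lists and transcripts of gate proteins. The members and lists were chosen with earlier results of these data known. Genes sharing at least 50% of their 31-mers with other genes, predicted genes and pseudogenes are given as uncertain. The limit of detection was set at 3 counts. Some genes are not reported here.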

Additional observations from a re-analysis of the deposited data

Results flagged for a closer look

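A larger or smaller tissue effect in pericytes than in FB, by the test of the difference itself, was called for 197 genes. The model gave pericytes and FB a common spread, though pericytes spread more widely, so genes can be called too easily. The FB gates, unlike that of pericytes, differed between the tissues, so tissue and gate cannot be told apart in FB. Of the genes named here, 36 were among them, and values are given for the 31 that were not uncertain and had more than 3 counts in some library of each group, 19 negative and 12 positive. Values are differences of log2 fold changes from the mean of both FB subsets, which had opposite signs for *Itga8*, *Agtr1a*, *Fn1* and *Col12a1*, among others. Ranges are over the 6 fits with a pericyte library left out, given where that moved the value by over 1.5 times. In these fits 24 of the 31 were called each time, and 7 were not: *Col4a2* without small intestinal replicate 1, *Thbs1* without colonic replicate 3, *C4b* without colonic replicate 1, *Ccl11* without small intestinal replicate 1 or colonic replicate 2, *Tpm2* without small intestinal replicate 2 or colonic replicate 2 or 3, and *Bmp5* and *Olfml2a* without small intestinal replicate 2 or any colonic replicate.

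Among contractile genes the difference was −4.09 for *Myh11*, −6.37 for *Synm*, −6.95 (range −11.16 to −6.30) for *Casq2* and −4.36 for *Itga8*. It was smaller for *Tagln* at −3.06, *Acta2* at −2.15, *Mylk* at −1.98 and *Tpm2* at −1.58. Channels and pumps had −8.56 (range −9.32 to −7.33) for *Cacna1g* and −5.01 (range −6.01 to −4.67) for *Atp2a3*. Vasoactive receptors were split, with −4.77 (range −5.18 to −3.95) for *Ednrb*, −4.12 (range −4.82 to −3.78) for *S1pr3* and 3.96 (range 3.56 to 4.84) for *Agtr1a*. Secreted signals had −3.68 for *Cxcl12*, −2.27 for *Ccl11* and −1.75 for *Bmp5*, and the Wnt receptor *Fzd2* had −6.29 (range −8.51 to −4.86). The log2 fold change of *Ccl11* was 1.63 in pericytes, 6.13 in the PDGFRα hi subset of FB and 1.58 in the Fgfr2+ subset, so only that of the PDGFRα hi subset was clearly above that of pericytes. The pericyte marker *Rgs5* had −2.22.

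Matrix genes had 3.1 for *Col12a1*, 2.77 (range 2.36 to 3.82) for *Fn1*, 2.59 for *Col3a1*, 1.92 for *Col1a1* and 1.70 for *Col4a2*, while *Thbs1* had −3.06 (range −3.79 to −2.23). Of the values given here, the widest positive difference was that of *Tek*, 11.33 (range 10.65 to 13.63), ahead of 7.30 (range 6.70 to 7.82) for *Fam98c* and 7.27 (range 6.85 to 8.17) for *Efcc1*. *Cdh11* had 4.92 (range 2.74 to 5.42), *C4b* 3.66 (range 3.19 to 4.41), *Gpx3* 3.51 (range 3.2 to 4.16) and *Olfml2a* −3.67.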

How the results depend on the processing

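The count of 0 genes called between the tissues was the same with RLE normalization, length-scaled counts and single transcripts. Other fold thresholds could not move it, as no adjusted p was below 0.05. It was 4 with upper-quartile normalization, 4 with limma-voom, 18 with no filter, 3 with the stricter filter, 348 with DESeq2 and 998 in a model of all 30 libraries, whose other populations varied less. Leaving out each library gave 0 to 1. Chosen after seeing the data, DESeq2 without small intestinal replicate 1 gave 387. *Myh11* and *Gpx3* were called with upper-quartile normalization, limma-voom, no filter and the stricter filter.

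The count of 197 genes against FB was 1121 with DESeq2 and 529 with all 30 libraries, 208 with RLE normalization and 263 with the stricter filter, and ran from 142 to 547 when each pericyte library was left out. The cause was not tested. The counts of 827 and 1134 genes with separate groups were 855 and 1112 with TMM over the 6 libraries and 761 and 1185 without scaling factors, both chosen after seeing the data. They ran from 1334 to 1610 and from 1665 to 2234 when each library was left out, as fewer libraries overlap less often.

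Direction was followed for 104 named genes whose groups did not overlap, and none turned under any of the 12 alternatives in which it could be tested. Leaving out a library could not turn genes chosen for separate groups, so those alternatives do not show how stable the direction is. DESeq2 called 55, the model of all 30 libraries 66 and limma-voom 4, and 2 could not be tested without a given small intestinal library and 9 without a given colonic one, as they then failed the filter.

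In the study both tissues were taken from the same mice, but the sources used here do not say which libraries share mice, so the block was used only as an alternative. Deviations from group means correlated at 0.0080, 0.0113 and 0.0200 for numbers 1, 2 and 3, and the libraries of number 1 did not correlate best with their own number. With the replicate block, edgeR called 0 genes between the tissues and 143 against FB, and DESeq2 with the block, chosen after seeing the data, called 674.

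Depth limited genes near 3 counts, and in 87 genes no small intestinal library and in 25 genes no colonic library had more than 3.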
